A study of Homo sapiens with 6 samples.

Results

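The 10 genes described here encode the RNA-binding proteins that switch alternative splicing between its non-neuronal and its neuronal form: *PTBP1*, *PTBP2*, *PTBP3*, *SRRM3*, *SRRM4*, *RBFOX1*, *RBFOX2*, *RBFOX3*, *NOVA1* and *NOVA2*. They were chosen by symbol, and all 10 were found among the 60651 genes of the deposited tables. Total RNA was sequenced in 6 libraries of a human neuroblastoma cell line, 3 whose titles name ethanol (EtOH, the vehicle) and 3 whose titles name tetracycline (Tet), with a treatment of 5 days in the protocol. All 6 libraries come from cells with a tetracycline-inducible system aimed at *MYCN*, the transcription factor gene amplified in many aggressive neuroblastomas. The titles give the *MYCN*-amplified line IMR-5/75, for which the study describes an inducible shRNA against *MYCN*. The growth protocol in the labels instead describes single clones of SK-N-SH cells with inducible *MYCN* expression, kept under the antibiotics G418 and Blasticidin, and one tag says "knockdown", so libraries are called by the EtOH or Tet of their titles and no direction of *MYCN* is assumed.

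PTBP1 is the polypyrimidine tract binding protein of most non-neuronal cells, where it holds neuron-specific exons out of mRNAs. During neuronal differentiation the microRNA miR-124 lowers PTBP1, its paralogue PTBP2 takes over in young neurons with a weaker effect on many of the same exons, and PTBP3 is the form best known from blood cells. SRRM4 and its relative SRRM3 act in the other direction and promote very short neuronal exons (microexons). The RBFOX proteins, of which RBFOX3 carries the neuronal antigen NeuN, and the NOVA proteins promote or repress neuronal exons according to whether they bind downstream or upstream of them.

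PTBP1 controls both its own mRNA and that of *PTBP2* through an exon of 34 bases. Where PTBP1 keeps the exon out, the reading frame shifts and the mRNA is degraded. These exons are shown because they are the direct link between the non-neuronal and the neuronal factor. They lie at chr19:807869-807902 in *PTBP1* and chr1:96806419-96806452 in *PTBP2*, both on the plus strand of GRCh38, and are present in 9 of 16 and 12 of 20 annotated transcripts that span them. They share 25 of 34 bases (73.5%), and capitals mark the bases that differ between them.
PTBP1 exon: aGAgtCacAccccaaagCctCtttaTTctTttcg
PTBP2 exon: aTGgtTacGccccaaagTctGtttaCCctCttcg

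The 60 intron bases just upstream of each exon, chr19:807809-807868 and chr1:96806359-96806418, are shown next. Capitals mark TCTT, a short pyrimidine motif that PTB proteins bind, searched on the transcribed strand only, with overlapping matches counted.
PTBP1 intron: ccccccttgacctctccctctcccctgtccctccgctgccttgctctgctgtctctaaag
PTBP2 intron: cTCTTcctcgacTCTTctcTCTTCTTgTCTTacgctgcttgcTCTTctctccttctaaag
Both windows are rich in pyrimidines (80% in *PTBP1* and 81.7% in *PTBP2*). The *PTBP2* window held 6 matches and the *PTBP1* window 0. Of 237486 windows of this length upstream of exons of protein-coding genes, 51.3% held at least 1 match and 0.056% held at least 6. The deposited counts sum all transcripts of a gene, so they do not tell how often either exon was included.

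The libraries held between 27933378 and 40498065 counts. *MYCN* was at 158, 256 and 156 CPM (counts relative to library size, scaled by TMM) in EtOH replicates 1, 2 and 3 and at 196.3, 199.9 and 145.2 CPM in Tet replicates 1, 2 and 3, which gives a log2 difference of -0.07 (with SE 0.23, adjusted p = 0.956 by edgeR). A change of the targeted gene was therefore not detected in either direction. EtOH replicate 2 stood apart from the other libraries, as described further on. The neuroblastoma transcription factor gene *GATA3* (228 to 334 CPM) was present in all 6 libraries, whereas *TH*, which encodes the first enzyme of catecholamine synthesis, had 1 count and *DBH* had 36 counts over all libraries. The glial marker *S100B* and the mesenchymal marker *PRRX2* had 0 counts, and the mesenchymal *FOSL1* had 1. Other markers of these kinds were present. The mesenchymal *VIM* was at 146 to 265 CPM and *FN1* at 46.3 to 69.9 CPM, and the glial *SOX10* at 0.451 to 2.81 CPM. In these bulk cultures, fewer cells of a kind and less RNA per cell cannot be told apart.

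Per exon length, *PTBP2* was the most abundant of the 10 regulators and *PTBP1* was below *PTBP2* and *PTBP3* in each of the 6 libraries. Levels between genes are given as TPM, counts divided by exon length and scaled to a common total. Mean TPM over the 6 libraries was 87.5 for *PTBP2*, 62.9 for *PTBP3*, 16.4 for *SRRM4*, 7.22 for *RBFOX2*, 6.23 for *PTBP1*, 2.83 for *SRRM3*, 2.68 for *RBFOX3*, 1.52 for *RBFOX1*, 1.48 for *NOVA2* and 0.0029 for *NOVA1*. *PTBP2* lay above 94.8% and *PTBP1* above 50.4% of the 22443 genes tested. In this order, *PTBP3* was below *PTBP2* and above *SRRM4* in each of the 6 libraries. The TPM ranges of *RBFOX2* (5.90 to 8.38) and *PTBP1* (4.76 to 8.27) overlapped, as did those of *SRRM3*, *RBFOX3*, *RBFOX1* and *NOVA2*, so these neighbours are not separated from each other.

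**Figure D1:**
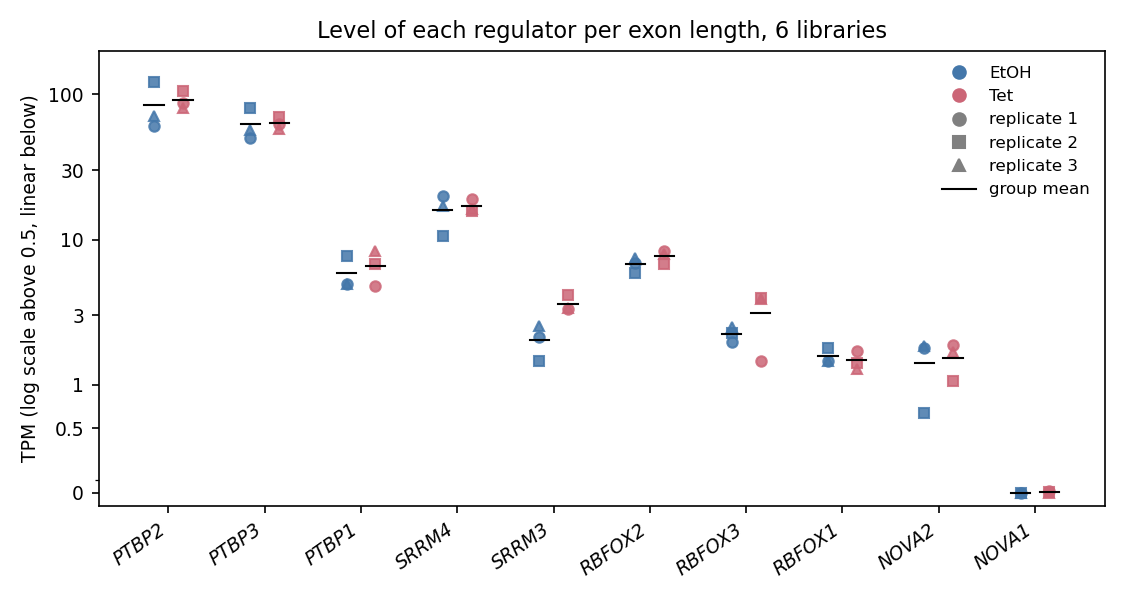
Level of the 10 regulators in TPM (vertical axis, logarithmic above 0.5 and linear below) in 3 libraries labelled EtOH (blue) and 3 labelled Tet (red). Marker shape gives the replicate number and the black line the group mean. *PTBP2* and *PTBP3* sit between 49.9 and 121.6 TPM, *PTBP1* between 4.76 and 8.27 TPM, and *NOVA1* at or near 0.

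The level of a gene in these libraries moved with the base composition of its exons. Over the genes tested, split into 5 equal groups by GC content, median TPM was 18.4 in the group with the lowest GC content (21.1 to 39.6%) and 1.22 in that with the highest (52.8 to 83.9%). *PTBP2* (34.8% GC) and *PTBP3* (37.5%) belong to the first of these groups, and *PTBP1* (60.03%), *SRRM3* (61.9%), *RBFOX3* (58.5%) and *NOVA2* (57.7%) to the last. *SRRM4* (50.1%), *RBFOX1* (46.6%) and *RBFOX2* (45.3%) lie between them. The part of base composition in the order of the regulators was not tested.

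The comparison of Tet with EtOH asked whether any of the regulators differed between the labels. Of the 10 genes, 9 had enough counts to be tested and 0 had an edgeR adjusted p under 0.05 (0 also by DESeq2 and by limma-voom), where 0.236% of all 22443 genes tested did (0.147% higher and 0.0891% lower in libraries labelled Tet). At an unadjusted p under 0.05 there was 1 regulator, *SRRM3*, against 10.8% of all genes. Log2 fold changes of 8 of the 9 genes were above 0, as were 49.3% of those of all genes tested, with a median of 0.20 beside -0.0061 over all genes tested. The sign turned in some alternative fits for *PTBP1*, *PTBP3*, *SRRM4*, *NOVA2* and *RBFOX1*. The values of *PTBP1* (0.27) and *PTBP2* (0.20) had the same sign, and the 95% interval of each included 0.

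**Figure D2:**
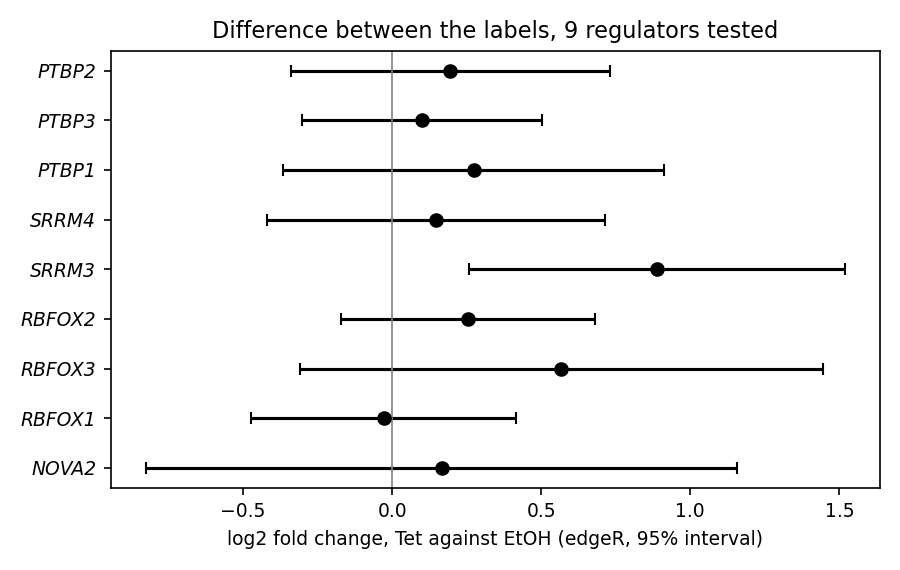
Log2 fold change of libraries labelled Tet against those labelled EtOH (horizontal axis) for the 9 regulators tested, with 95% intervals from the edgeR fit. The interval of *SRRM3* (0.26 to 1.52) leaves out 0 before adjustment for the number of genes, and the other 8 intervals include 0.

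*PTBP1* (ENSG00000011304.22, chromosome 19, 797075 to 812327, plus strand) was at 13.8, 19.6 and 13.6 CPM in EtOH replicates 1, 2 and 3 and at 12.7, 18.6 and 25.5 CPM in Tet replicates 1, 2 and 3. Tet replicate 1 was the lowest of all 6 libraries and Tet replicate 3 the highest, so the range of the EtOH libraries lay within that of the Tet libraries. The means were 15.7 ± 3.43 CPM for EtOH and 18.9 ± 6.41 CPM for Tet (SD, n = 3 each), a log2 fold change of 0.27 (SE 0.28, 95% interval -0.36 to 0.91, edgeR adjusted p = 0.810). On the linear scale this interval spans 0.777 to 1.88 times the EtOH level. With 1 library left out the log2 value lay between 0.0030 (no Tet replicate 3) and 0.48 (no Tet replicate 1), and after a correction for GC content it was -0.032. The microRNA gene *MIR4745* overlaps 0.824% of the exon bases of *PTBP1*.

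*PTBP2* (ENSG00000117569.19, chromosome 1, 96721665 to 96823738, plus strand), the neuronal paralogue, was at 328, 603 and 380.4 CPM in EtOH replicates 1, 2 and 3 and at 451, 567 and 484 CPM in Tet replicates 1, 2 and 3. EtOH replicate 2 was the highest library and the other EtOH libraries the lowest, with all 3 Tet libraries in between. The log2 fold change was 0.20 (SE 0.23, 95% interval -0.34 to 0.73, edgeR adjusted p = 0.844), from 437 ± 146.1 to 501 ± 59.7 CPM (SD, n = 3 each). With 1 library left out it ranged from 0.0033 (without EtOH replicate 1) to 0.50 (without EtOH replicate 2), short of the threshold in each, and it was 0.18 after the correction for GC content. *PTBP3* (ENSG00000119314.16, chromosome 9, 112217716 to 112333664, minus strand) was at 152.2, 225.1 and 171.3 CPM in the EtOH libraries and at 183.4, 211.2 and 193.4 CPM in the Tet libraries, with a log2 fold change of 0.10 (SE 0.18, 95% interval -0.30 to 0.50, edgeR adjusted p = 0.905). Its libraries fell in the same order as those of *PTBP2*.

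The ratio of *PTBP2* to *PTBP1* differed between the labels by less than the spread between replicates. *PTBP2* exceeded *PTBP1* in each library, 12.2, 15.7 and 14.3 times in EtOH replicates 1, 2 and 3 and 18.2, 15.6 and 9.73 times in Tet replicates 1, 2 and 3 (ratio of TPM). Both the highest and the lowest ratio came from libraries labelled Tet. On the log2 scale the mean ratio was 3.81 ± 0.18 for EtOH and 3.81 ± 0.47 for Tet (SD, n = 3 each), a difference of 0.0031, which is smaller than either SD. *PTBP1* made up 3.90% ± 0.34 of the summed TPM of the family in EtOH and 4.15% ± 1.35 in Tet, *PTBP2* 54.6% ± 2.90 and 56.4% ± 1.40, and *PTBP3* 41.5% ± 2.67 and 39.5% ± 1.17. The differences of *PTBP2* (1.83 points) and *PTBP3* (-2.08 points) were smaller than their EtOH SD but larger than their Tet SD. These values are descriptions with no test, and a ratio of this kind does not depend on how libraries were scaled. *PTBP2* and *PTBP1* differ in GC content, however (34.8% and 60.03%). In Tet replicate 3, of the lowest ratio, genes deviated from their Tet mean by a median log2 CPM of -0.13 in the lowest and 0.49 in the highest GC group. In Tet replicate 1, of the highest ratio, these medians were 0.01 and -0.20. What part base composition has in the ratio was not tested.

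*SRRM3* showed the largest difference of the 9 regulators. *SRRM3* (ENSG00000177679.16, chromosome 7, 76201896 to 76287288, plus strand) was at 5.40, 3.39 and 6.37 CPM in EtOH replicates 1, 2 and 3 and at 8.07, 10.5 and 9.52 CPM in Tet replicates 1, 2 and 3. All 3 Tet libraries were above all 3 EtOH libraries, which was so for 9.2% of all genes tested, while every Tet library was below every EtOH library for 8.29%. No other regulator had groups that did not overlap. The log2 fold change was 0.89 (SE 0.28, 95% interval 0.26 to 1.52), from 5.05 ± 1.52 to 9.37 ± 1.23 CPM (SD, n = 3 each), and it did not pass the threshold (edgeR unadjusted p = 0.0112, adjusted p = 0.278). Across the alternatives tried, the adjusted p ranged from 0.0934 to 0.571, and across fits that left out 1 library the log2 fold change ranged from 0.68 to 1.07. It was 0.69 after the correction for GC content (edgeR unadjusted p = 0.0815, adjusted p = 0.465). The values rest on between 94 and 379 counts a library. The nuclear noncoding RNA *MALAT1* also separated the labels, with 5.04 to 7.19% of counts in EtOH and 7.27 to 9.53% in Tet libraries.

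Its relative *SRRM4* (ENSG00000139767.10, chromosome 12, 118981541 to 119163051, plus strand), the better studied activator of microexons, was at 89.8, 43.95 and 76.6 CPM in the EtOH libraries and at 82.1, 70.3 and 80.7 CPM in the Tet libraries. EtOH replicate 2 was the lowest library, and the others spanned a narrow range. The log2 fold change was 0.15 (SE 0.25, 95% interval -0.42 to 0.71, edgeR adjusted p = 0.899), and it ranged from -0.094 (without EtOH replicate 2) to 0.35 (without EtOH replicate 1) with 1 library left out. *SRRM4* exceeded *SRRM3* in every library, but by less in libraries labelled Tet: the ratio of TPM was 9.35, 7.30 and 6.76 in EtOH replicates 1, 2 and 3 and 5.72, 3.76 and 4.77 in Tet replicates 1, 2 and 3. The difference of the log2 ratio was -0.72, with SDs of 0.24 for EtOH and 0.30 for Tet (n = 3 each), and between -0.87 and -0.57 with 1 library left out. This ratio was singled out after its values were seen and was not tested. Under the GC correction the log2 fold changes were 0.69 for *SRRM3* and 0.22 for *SRRM4*, closer together than without it (0.89 and 0.15). *SRRM3* took 11.5% ± 1.67 of the summed TPM of the pair in EtOH and 17.7% ± 3.08 in Tet.

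**Figure D3:**
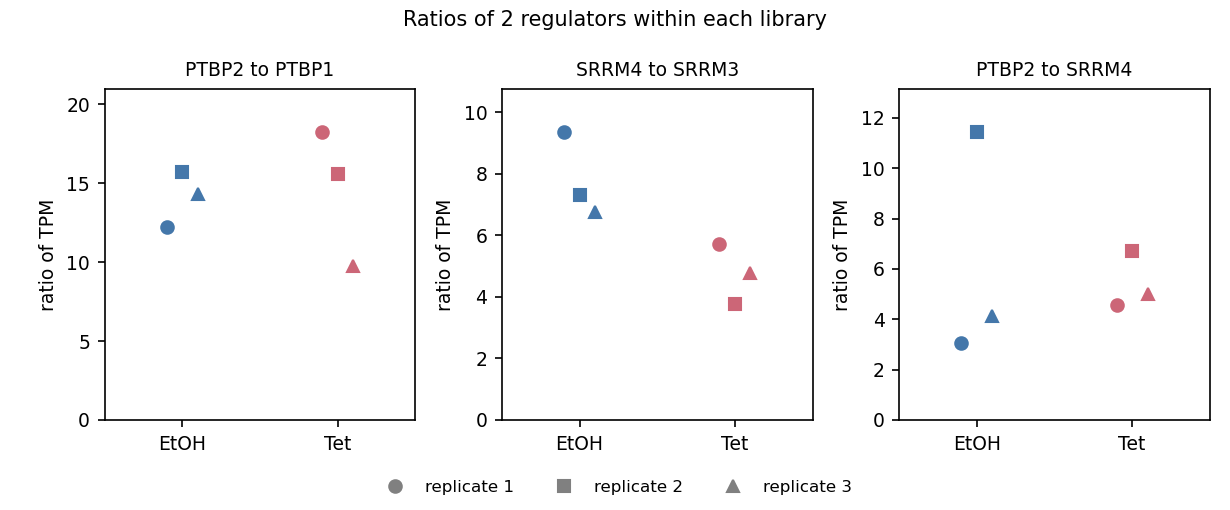
Ratio of TPM of *PTBP2* to *PTBP1*, *SRRM4* to *SRRM3* and *PTBP2* to *SRRM4* within each library (vertical axes, starting at 0), for 3 EtOH (blue) and 3 Tet (red) libraries, marker shape giving the replicate. The groups overlap in the left and right panels, and in the middle panel the Tet libraries (3.76 to 5.72) lie below the EtOH libraries (6.76 to 9.35).

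Among the RBFOX genes, *RBFOX2* was the main form, and *RBFOX3* had the widest spread. *RBFOX2* (ENSG00000100320.23, chromosome 22, 35738736 to 36028824, minus strand), the family member expressed in most tissues, was at 26.6, 20.8 and 28.5 CPM in the EtOH libraries and at 30.9, 25.9 and 33.8 CPM in the Tet libraries. The groups overlapped, with replicate 2 the lowest library of each label, and the log2 fold change was 0.26 (SE 0.19, 95% interval -0.17 to 0.68, edgeR adjusted p = 0.707). With 1 library left out it ranged from 0.14 (without EtOH replicate 2) to 0.36 (without Tet replicate 2). *RBFOX3* (ENSG00000167281.19, chromosome 17, 79089345 to 79516148, minus strand), a marker of mature neurons, was at 7.19, 7.60 and 9.01 CPM in the EtOH libraries and at 5.06, 14.4 and 15.7 CPM in Tet replicates 1, 2 and 3. Tet replicates 2 and 3 thus lay above every EtOH library and Tet replicate 1 below every one. The log2 fold change of 0.57 (SE 0.38, 95% interval -0.31 to 1.44, edgeR adjusted p = 0.674) became 0.92 without Tet replicate 1 and 0.30 without Tet replicate 3, short of the threshold in both.

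*RBFOX1* (ENSG00000078328.22, chromosome 16, 5239802 to 7713340, plus strand), a neuronal and muscle form, was the steadiest of the regulators, at 8.52, 9.58 and 8.42 CPM in the EtOH libraries and at 9.56, 8.17 and 8.29 CPM in the Tet libraries. Its highest library was 1.17 times its lowest, against 3.11 times for *RBFOX3* and 3.20 times for *NOVA2*. The log2 fold change was -0.03 (SE 0.19, 95% interval -0.47 to 0.42, edgeR adjusted p = 0.981), an interval that spans 0.721 to 1.33 times the EtOH level. *RBFOX2* held 63.8% ± 4.10 of the summed TPM of the family in EtOH and 62.9% ± 8.74 in Tet.

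The NOVA genes were at the low end, and one of them was all but absent. *NOVA2* (ENSG00000104967.8, chromosome 19, 45933734 to 45974044, minus strand), the form of the cortex, was at 6.04, 1.98 and 6.17 CPM in the EtOH libraries and at 6.09, 3.55 and 6.33 CPM in the Tet libraries. Replicate 2 was the lowest library of each label, and the other 4 libraries lay between 6.04 and 6.33 CPM. The log2 fold change was 0.17 (SE 0.43, 95% interval -0.83 to 1.16, edgeR adjusted p = 0.946), and it ranged from -0.19 (without EtOH replicate 2) to 0.39 (without Tet replicate 2) with 1 library left out. *NOVA1* (ENSG00000139910.20, chromosome 14, 26443090 to 26598033, minus strand), the form of the hindbrain and spinal cord, had 2 counts in all, 1 each in Tet replicates 1 and 2, and was not tested. A count of 0 allows a level of up to 3 counts, between 0.0741 and 0.107 CPM a library, by counting error alone.

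Libraries of one label also differed from each other, and the regulators did so in opposite directions. Relative to the mean of its group on the log2 CPM scale, EtOH replicate 2 was higher for *PTBP2* (0.51), *PTBP1* (0.35), *PTBP3* (0.32) and *RBFOX1* (0.12). It was lower for *NOVA2* (-1.08), *SRRM4* (-0.61), *SRRM3* (-0.53), *RBFOX2* (-0.27) and *RBFOX3* (-0.055). All 3 PTB genes were thus high and both SRRM genes and *NOVA2* low in that library, and the ratio of *PTBP2* to *SRRM4* was 11.4 there against 3.05 to 6.72 in the other 5. Tet replicate 2 deviated in the same direction for *PTBP2* (0.19), *PTBP3* (0.11), *NOVA2* (-0.54), *RBFOX2* (-0.21) and *SRRM4* (-0.14), and hardly for *PTBP1* (0.03), but not for *SRRM3* (0.17), *RBFOX3* (0.46) or *RBFOX1* (-0.08).

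Other values moved with this contrast between libraries. Genes of low GC content were high in EtOH replicate 2 and those of high GC content low, with median deviations from 0.27 in the lowest to -0.30 in the highest of the 5 GC groups. *PTBP1* (60.03% GC) and *RBFOX1* went against that trend, and *RBFOX3* (-0.055) deviated less than the median of its GC group (-0.30). *PTBP2*, *PTBP3*, *NOVA2*, *SRRM3*, *SRRM4* and *RBFOX2* deviated in the direction of the trend and further than the median of their group. The Tet libraries differed in this way too, with median deviations of the highest GC group at -0.20, -0.28 and 0.49 in replicates 1, 2 and 3. In Tet replicate 3 the regulators of that group were at 0.59 (*RBFOX3*), 0.49 (*PTBP1*), 0.30 (*NOVA2*) and 0.03 (*SRRM3*). The summed level of 8 proliferation markers was 2341 CPM in EtOH replicate 2 and 1366 to 1749 CPM in the other 5 libraries. Of that sum, *TOP2A* (38.7% GC) alone made up 1317 CPM. *TOP2A*, *CDK1*, *BUB1*, *CCNB1* and *PCNA* were each highest in EtOH replicate 2, but the other markers were not. *MKI67* was at 231 CPM there, against 366 and 286 CPM in EtOH replicates 1 and 3. Among the EtOH libraries, *AURKB* was lowest in replicate 2 and *MCM2* was intermediate. The mitochondrial genome took 4.12% of counts in EtOH replicate 2 and 5.86 to 10.01% elsewhere. What part base composition, proliferation or the mitochondrial share has in the levels of the regulators was not tested.

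**Figure D4:**
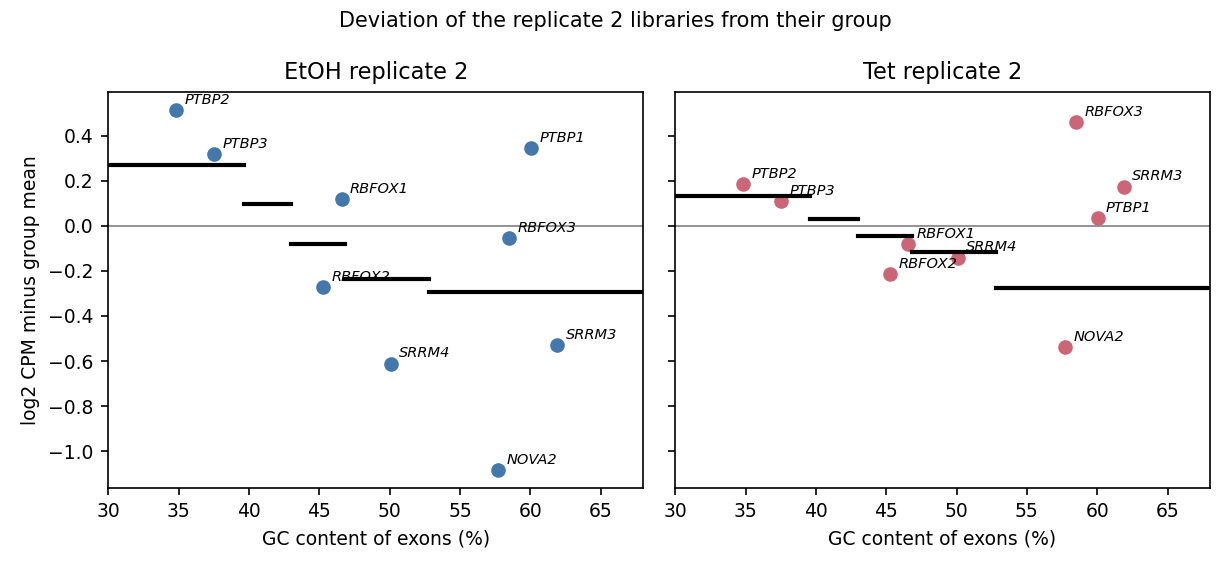
Deviation of EtOH replicate 2 (left) and Tet replicate 2 (right) from the mean of their own group in log2 CPM (vertical axis) against exon GC content in percent (horizontal axis), 1 point for each of 9 regulators. Black bars are medians of all genes tested in 5 equal groups by GC content, with the outer bars ended at the axis limits. In EtOH replicate 2 *PTBP2*, *PTBP3* and *PTBP1* lie above the bars and *NOVA2*, *SRRM4* and *SRRM3* below them.

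Genes of proteins that work with these regulators did not pass the threshold. There were 16 partners, such as *RAVER1* and *MATR3*, which bind PTBP1, or *HNRNPM* of the RBFOX complex, and 16 were tested. Of these, 0 had an edgeR adjusted p under 0.05 and 1 had an unadjusted p under 0.05 (beside 10.8% of all genes). Their median log2 fold change was 0.0057. The RNA helicase gene *DDX5*, of the same complex, was at 1143 ± 57.7 CPM in EtOH and 1622 ± 166 CPM in Tet (log2 change 0.51 with SE 0.15, adjusted p = 0.253 by edgeR). *ILF2* was at 307 ± 47.3 and 243 ± 1.88 CPM (log2 change -0.34 with SE 0.15, adjusted p = 0.490 by edgeR). *HNRNPM* and *RAVER2* followed, with log2 fold changes of 0.24 and -0.27. Groups did not overlap for *DDX5* (Tet above EtOH, as for 9.2% of all genes tested) and *ILF2* (Tet below EtOH, as for 8.29%). *MATR3* has 2 identifiers that share exons and reads, and its values are uncertain.

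Of 15 other splicing regulators, 13 were tested and 0 passed the threshold. At an unadjusted p under 0.05, 3 were higher and 0 lower (beside 10.8% of all genes in either direction). These were the neuronal Hu protein gene *ELAVL3* (15.1 ± 2.60 CPM in EtOH, 34.9 ± 7.71 CPM in Tet, SD, n = 3 each, and log2 change 1.21 with SE 0.22, adjusted p = 0.0818 by edgeR), its relative *ELAVL4* (0.57, edgeR adjusted p = 0.221) and the muscle splicing factor gene *RBM24* (0.82, edgeR adjusted p = 0.122). Each had 3 of 3 Tet libraries above every EtOH library, as had 9.2% of all genes tested. Without EtOH replicate 2, *ELAVL3* (1.36, adjusted p = 0.0166, range over all alternatives 0.0017 to 0.429) and *RBM24* (0.83, adjusted p = 0.0472, range 0.0166 to 0.471) passed it. *SRRM1* (-0.29, edgeR adjusted p = 0.541) and *SRRM2* (-0.29, edgeR adjusted p = 0.856), which are not neuronal, had values below 0. For *SRRM1* every Tet library was below every EtOH library, as for 8.29% of all genes tested. *ELAVL2* (206 to 273 CPM) and the ubiquitous *ELAVL1* (34.3 to 49.4 CPM) had overlapping groups. *KHDRBS2*, a neuronal regulator of neurexin splicing, had 0 counts, and the epithelial regulator *ESRP1* had 35 counts over all libraries.

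The upstream arm of the switch was also read from the counts. *REST*, the repressor that keeps neuronal genes such as *SRRM4* off outside neurons and is itself inactivated by SRRM4-dependent splicing, was at 114 ± 42.1 CPM in EtOH and 117 ± 16.2 CPM in Tet (log2 change 0.04 with SE 0.25, adjusted p = 0.981 by edgeR). Host transcripts of miR-124 were low, with 0.288 to 1.36 CPM for *MIR124-1HG* and 5.53 to 10.9 CPM for *MIR124-2HG*, and their log2 fold changes were 0.18 (SE 0.53) and -0.12 (SE 0.27), with edgeR adjusted p = 0.951 and 0.937. Of the 16 genes of this arm, 15 were tested and 0 passed the threshold. The lowest adjusted p was that of *MIR9-1HG*, a host of miR-9, at 39.1 ± 3.09 CPM in EtOH and 16.7 ± 3.15 CPM in Tet (log2 change -1.23 with SE 0.19, adjusted p = 0.0538 by edgeR). It had 3 of 3 Tet libraries below every EtOH library, as had 8.29% of all genes tested. Without EtOH replicate 2 its value was -1.16 (adjusted p = 0.0166, range over all alternatives 3.4e-05 to 0.327). *CTDSPL*, a phosphatase gene targeted by miR-124, was at -0.44 (edgeR adjusted p = 0.383), the histone methyltransferase gene *EHMT2* at 1.66 (edgeR adjusted p = 0.409), with 6.63 CPM in Tet replicate 3 and 0.669 to 1.63 CPM in the other libraries (0.51 without Tet replicate 3), and *HDAC2* at 0.32 (edgeR adjusted p = 0.567). Mature microRNAs were not analysed here.

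Among 36 genes that carry exons controlled by these regulators, 30 were tested and 0 passed the threshold. At an unadjusted p under 0.05, 6 were higher and 2 lower (beside 10.8% of all genes in either direction). The median log2 fold change of the 30 was 0.26, beside -0.0061 over all genes tested. Of the 30, 10 had every Tet library above every EtOH library (beside 9.2% of all genes), and 1 had them all below (beside 8.29%). The axon initial segment gene *ANK3* was at 74.3 ± 22.7 CPM in EtOH and 180.3 ± 12.2 CPM in Tet (log2 change 1.28 with SE 0.23, adjusted p = 0.0812 by edgeR). The axon guidance receptor gene *ROBO2*, a NOVA target, was at 41.7 ± 5.76 and 75.1 ± 1.99 CPM (0.85, SE 0.16, edgeR adjusted p = 0.0818). Without EtOH replicate 2, *ANK3* (1.06, adjusted p = 0.00922, range over all alternatives 0.00031 to 0.353) and *ROBO2* (0.75, adjusted p = 0.022, range 0.0057 to 0.38) passed the threshold. The glycine receptor gene *GLRA2* (-0.81, edgeR adjusted p = 0.255) and the reelin adaptor gene *DAB1* (-0.60, edgeR adjusted p = 0.377), both NOVA targets, had values below 0. These are gene totals, and exon use was not analysed here.

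The summed level of markers of neuronal differentiation was higher in each Tet library than in any EtOH library, though 0 of the markers passed the threshold. Of 17 such genes, 15 were tested, and 8 were higher and 0 lower at an unadjusted p under 0.05 (beside 10.8% of all genes in either direction), with a median log2 fold change of 0.60. Their summed level was 896 to 1399 CPM in EtOH and 1939 to 2399 CPM in Tet. The microtubule protein genes *DCX* (1.26, SE 0.28, edgeR adjusted p = 0.134) and *MAP2* (0.60, SE 0.14, edgeR adjusted p = 0.142) had the lowest p-values. Without EtOH replicate 2 both passed the threshold (adjusted p = 0.0155 and 0.0352), with a range over all alternatives of 0.0024 to 0.465 for *DCX* and 0.0241 to 0.685 for *MAP2*. The axonal marker *STMN2* was near 0 (0.139 to 0.310 CPM). Adrenergic markers summed to 621 to 680 CPM in EtOH and 685 to 832 CPM in Tet, with *ISL1* at 1.18 and *PHOX2A* at 1.40 (edgeR adjusted p = 0.142 and 0.262, the value of *PHOX2A* being 0.71 without Tet replicate 3 and 0.74 under the GC correction) and *HAND2* at -0.14. Without EtOH replicate 2, *ISL1* (1.44, adjusted p = 0.0174, range over all alternatives 0.0024 to 0.589) and the mesenchymal *SNAI2* (2.82, adjusted p = 0.0451, range 0.0045 to 0.834) passed the threshold. Mesenchymal markers (298 to 526 and 265 to 385 CPM), glial markers (2.38 to 3.18 and 1.38 to 4.77 CPM) and proliferation markers (1561 to 2341 and 1366 to 1749 CPM) overlapped. Median log2 fold changes were -0.39 over 9 mesenchymal and -0.36 over 8 proliferation markers tested, and 0 adrenergic, mesenchymal, glial or proliferation markers passed the threshold. At an unadjusted p under 0.05 there were 3 higher adrenergic, 1 higher and 2 lower mesenchymal, 0 glial and 1 lower proliferation markers. Log2 fold changes were -1.02 for *PRRX1*, 0.19 for *FN1*, 1.84 for *SNAI2* and -1.38 for *NOTCH2* among mesenchymal, -0.20 for *SOX10* among glial, and -0.43 for *MKI67*, -0.62 for *CCNB1* and 0.01 for *PCNA* among proliferation markers, the last at -0.0081 with RLE factors. What part these markers or the *MALAT1* share have in the difference of *SRRM3* was not tested.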

How the data were processed

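Per the labels, ribosomal RNA was removed enzymatically and stranded paired-end libraries were sequenced. Per the file headers, the authors counted uniquely aligned read pairs over exons with featureCounts 1.6.4, dividing pairs that overlap several genes and not using strand. The submitters' processing notes name STAR 2.7.1a, featureCounts 1.5.1 and GRCh38. The study's methods describe other counting options, with strand and with reads of several alignments. The deposited values are estimated counts per gene, with no scaling for depth or length. By the headers, reads with several alignments are lost, which lowers genes with near-identical copies, and sense and antisense reads cannot be told apart. The 92 spike-in sequences had 0 counts and were left out.

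Counts were rounded to whole numbers, filtered with filterByExpr, scaled by TMM and compared between labels in edgeR 4.0.16 (R 4.3.3) by its quasi-likelihood F test. P-values were adjusted by Benjamini-Hochberg across the 22443 tested genes and 0.05 was the threshold. The planned test had assumed whole counts. The SE is the log2 fold change divided by the square root of F, and 95% intervals use its t distribution. TPM used the union exon length in the tables. GC content was read from GRCh38 at the exons of the tables, and the switch exons from the GENCODE annotation. Alternatives were RLE and upper quartile factors, no filter, at least 10 counts in 3 libraries, DESeq2 1.42.0, limma-voom 3.58.1, leaving out each library and a replicate block. A GC correction and the leave-one-out of the *SRRM4* to *SRRM3* ratio were added after seeing the data. The fits were also run on simulated counts, which held no trend with GC content and no outlying library. No limit on false calls was set there for DESeq2.

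The regulators and the lists were chosen with earlier results of these data known. Named were all 10 regulators, *MYCN*, and from each list the 2 genes of lowest p in each direction. Some of these are not reported here. Other genes named were chosen after their values were seen. The labels do not say that replicates are separate cultures, so p-values measure the spread between these libraries.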

Additional observations from a re-analysis of the deposited data

How the results depend on the processing

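The 9 regulators tested fell short of the threshold in all 126 refits, the lowest adjusted p being 0.0934 (*SRRM3*, with the replicate number as a block). The direction was kept in 119. *PTBP1* was at -0.032 under the GC correction, and with 1 library left out log2 fold changes ranged from 0.0030 to 0.48 for *PTBP1*, from 0.0033 to 0.50 for *PTBP2*, from 0.14 to 0.36 for *RBFOX2*, from 0.30 to 0.92 for *RBFOX3*, from 0.68 to 1.07 for *SRRM3*, from -0.11 to 0.039 for *RBFOX1*, from -0.19 to 0.39 for *NOVA2*, from -0.038 to 0.28 for *PTBP3*, from -0.094 to 0.35 for *SRRM4* and from -0.22 to 0.21 for *MYCN*. Among the other named genes, 411 of 462 refits kept direction and side, 35 passed the threshold in the same direction, and 16 turned direction, all of them short of it. With 1 library left out, values ranged from -0.62 to 0.092 for *SRRM2*, from -0.44 to 0.018 for *HAND2*, from -1.35 to 0.22 for *SOX10*, from -0.17 to 0.31 for *PCNA*, from -0.14 to 0.39 for *REST*, from -0.24 to 0.47 for *MIR124-1HG* and from -0.32 to 0.13 for *MIR124-2HG*. *PCNA* was also at -0.0081 with RLE factors and -0.0063 under DESeq2.

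The number of genes past the threshold over the whole table, 33 higher and 20 lower, was less stable: 185 and 117 with no filter, 290 and 209 under DESeq2, 73 and 48 under the GC correction and 13 lower with RLE factors. With 1 library left out it ranged from 0 to 361 higher and from 0 to 331 lower, with the upper ends when EtOH replicate 2 was dropped and at most 1 in each direction when any other library was. Dropping Tet replicate 1 or Tet replicate 3 gave 0 by edgeR, where 1865 and 2067 genes had an unadjusted p below 0.05. The cause was not tested.

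Replicates 1, 2 and 3 of both labels deviated from the mean of their label with correlations of 0.0603, 0.51 and 0.219. The first is under 0.1, so the number was not taken as a pairing. Libraries of different number were not compared in this way, so these correlations do not settle whether replicates were paired. With the replicate block 421 genes were higher and 254 lower. The block placed past the threshold 2 of the other splicing regulators, 1 of the *REST* arm, 3 hosts of switch exons, 4 neuronal, 1 adrenergic, 2 mesenchymal and 1 proliferation marker.

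The lists, with 0 genes past the threshold in the fit reported, had 1 other splicing regulator, 1 gene of the *REST* arm, 2 hosts, 2 neuronal and 2 adrenergic markers with no filter, and 2, 1, 2, 2 and 2 under DESeq2. With 1 library left out the numbers ranged from 0 to 2 for other splicing regulators, 0 to 1 for the *REST* arm, 0 to 3 for hosts, 0 to 3 for neuronal markers, 0 to 1 for adrenergic and 0 to 1 for mesenchymal markers, each upper end without EtOH replicate 2.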
